A study of Mus musculus with 12 samples.

Results

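The genes that release calcium from the endoplasmic reticulum and refill it were examined in poly(A) RNA-seq libraries of mouse hippocampus. They are the ryanodine receptor genes *Ryr1*, *Ryr2* and *Ryr3*, the IP3 receptor genes *Itpr1*, *Itpr2* and *Itpr3*, the SERCA pump genes *Atp2a2* and *Atp2a3*, and the store sensor genes *Stim1* and *Stim2*. They were taken by symbol, through the Ensembl ID of each count, and make up 10 of the 37991 genes counted. All 10 were found and all 10 passed the filter on low counts.

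The study asked how loss of *Gadd45a*, a stress-inducible gene, alters hippocampal mRNAs after aversive learning. Of 12 C57BL/6N mice, 6 were labelled *Gadd45a*-WT and 6 *Gadd45a*-KO (*Gadd45a*-/-), siblings from crosses of heterozygous animals, aged 6 to 7 months by the labels, and a younger range by the study's methods. Every mouse had passive avoidance (PA) training, in which an animal learns to shun a chamber where it received a foot shock, and hippocampi were taken 1 h later, so that no untrained animals enter these comparisons. In the knockout line the front exons of *Gadd45a* are replaced by a neomycin cassette in the germline, in every cell, while its last exon remains.

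Each library held 44594261 to 55540601 reads on genes, given here as CPM (read counts over a library total scaled to 1000000) scaled with the TMM factors of edgeR. The targeted gene was checked first. *Gadd45a* stood at 2.19 to 3.43 CPM under the label *Gadd45a*-WT and at 20.5 to 23.1 CPM under the label *Gadd45a*-KO, so its reads went against the labels, and counts per gene cannot separate a remaining exon from the replaced ones. The libraries are therefore named by label throughout, and every direction given rests on those labels: were they exchanged, each log2 fold change would keep its size and turn its sign. Neuronal markers were present (summed CPM of 5 genes 11046 to 12415.5), as were those of the hippocampal fields, with 177.5 to 410.0 CPM for 3 dentate granule cell markers, 187.6 to 416.1 CPM for 3 CA1 markers and 105.4 to 176.6 CPM for 3 CA3 markers. Of the CA1 markers, *Pou3f1* had only 0 to 6 reads a library and failed the filter, so that sum comes almost wholly from *Wfs1* and *Fibcd1*. In bulk tissue, fewer cells of a type cannot be told apart from less RNA per cell. No label says that mice shared a batch.

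Calcium is held in the endoplasmic reticulum at a much higher concentration than in the cytoplasm and leaves it through large tetrameric channels. Ryanodine receptors open on cytoplasmic calcium and so amplify a calcium signal, whereas IP3 receptors open on inositol trisphosphate made after activation of Gq-coupled receptors, including group I metabotropic glutamate receptors. SERCA pumps use ATP to return calcium to the lumen. STIM proteins sense a falling calcium level in the lumen and open Orai channels in the plasma membrane. In hippocampal neurons this store takes part in synaptic plasticity and memory.

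The release channels share a pore. Its selectivity filter is shown because it is a stretch that both channel families have in common, and because near-identical paralogues could share reads. The sequences, from the NCBIM37 build, run along the coding strand from 5′ to 3′, with the 18 bases that encode the filter in capitals and 21 bases on either side. Each lies within a single coding exon: exon 102 of 106 for *Ryr1* (chr7:29790596-29790655, minus strand), exon 101 of 105 for *Ryr2* (chr13:11652873-11652932, minus strand), exon 100 of 104 for *Ryr3* (chr2:112476767-112476826, minus strand), exon 58 of 62 for *Itpr1* (chr6:108468761-108468820, plus strand), exon 53 of 57 for *Itpr2* (chr6:146107412-146107471, minus strand) and exon 54 of 58 for *Itpr3* (chr17:27255555-27255614, plus strand).
Ryr1: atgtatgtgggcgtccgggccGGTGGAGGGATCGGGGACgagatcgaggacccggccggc
Ryr2: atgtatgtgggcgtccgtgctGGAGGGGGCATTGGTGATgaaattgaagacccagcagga
Ryr3: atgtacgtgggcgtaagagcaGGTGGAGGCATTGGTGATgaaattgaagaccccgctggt
Itpr1: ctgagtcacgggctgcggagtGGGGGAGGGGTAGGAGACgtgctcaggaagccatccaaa
Itpr2: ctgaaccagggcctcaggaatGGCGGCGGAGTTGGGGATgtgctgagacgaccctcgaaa
Itpr3: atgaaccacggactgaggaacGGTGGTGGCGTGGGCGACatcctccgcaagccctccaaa

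Over these 60 bases *Ryr2* and *Ryr3* were identical at 50, *Ryr1* and *Ryr2* at 46, and *Ryr1* and *Ryr3* at 45. Among the IP3 receptors, *Itpr1* and *Itpr3* were identical at 43 of 60 bases and the other two pairs at 40, and between the families 24 to 33 bases matched. The paralogues nevertheless differ enough for short reads that match exactly. Among all windows of 51 bases along the longest coding transcript of each of the 10 genes, none occurred in another of the 10. Windows shared exactly with a protein-coding transcript of another gene on the same strand were 12 of 16763 (0.0716%) for *Ryr2*, 3 of 4556 (0.0658%) for *Atp2a3* and 0 for the other 8 genes. Noncoding genes, pseudogenes and matches with mismatched bases were not searched.

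Between the labels, 2 of the 10 genes differed at 1% FDR, *Ryr2* and *Ryr3*, the ryanodine receptors known as the heart and the brain forms. Both were lower under the label *Gadd45a*-KO, by 22.6% and 30.1%, and no gene of the 10 was higher. Across all 16399 genes tested, 2.62% were lower and 0.0244% were higher by the same edgeR test. In the same 2 genes every library labelled *Gadd45a*-KO lay below every library labelled *Gadd45a*-WT, an arrangement seen in 3.12% of all tested genes. The opposite arrangement occurred in 0 of the 10 and in 0.183% of all tested genes. The median log2 fold change (labelled *Gadd45a*-KO minus labelled *Gadd45a*-WT) was -0.06 over the 10 genes and 0.00 over all tested genes, with 6 of the 10 below zero and 4 above. At an unadjusted p under 0.05 stood 3 of the 10 (30.0%), the third being *Itpr1*, against 13.7% of all genes. With so few members, these shares describe the 10 genes and do not test them as a set.

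**Figure D1:**
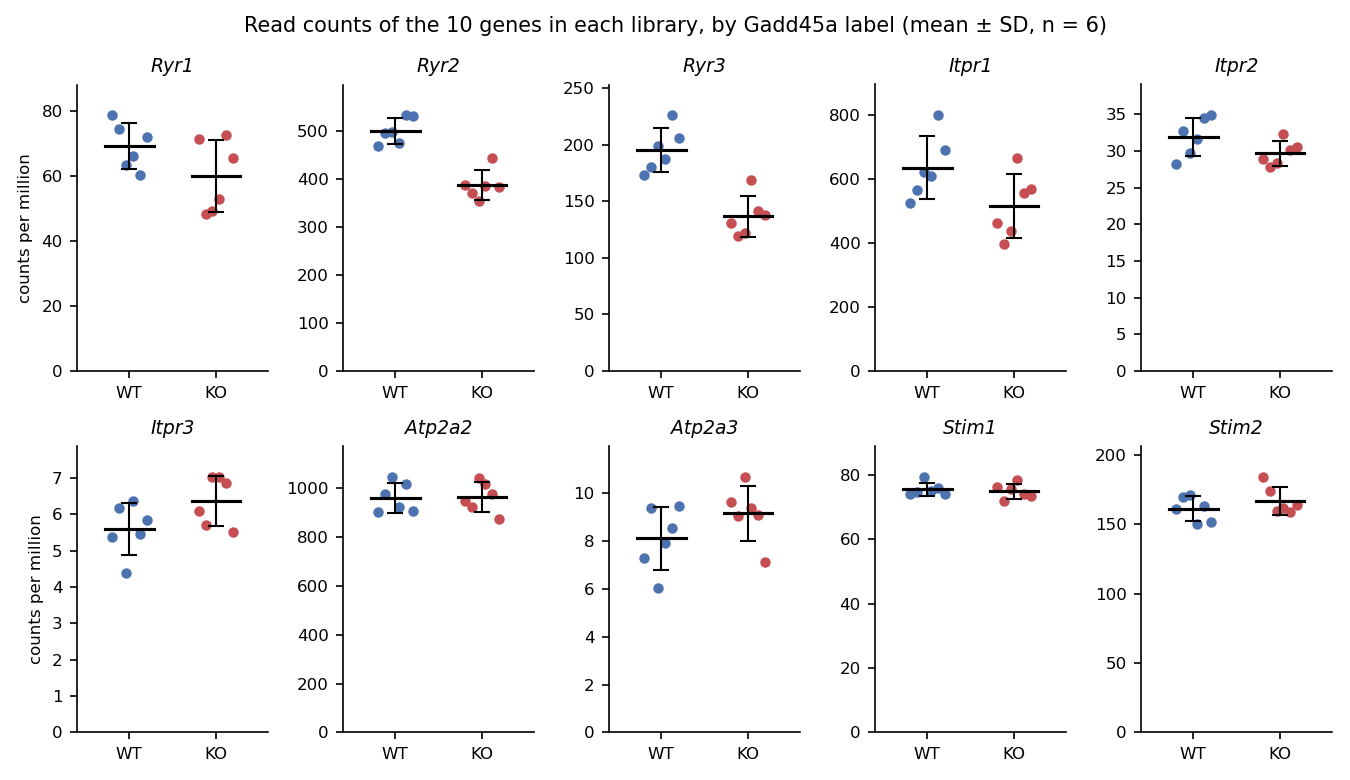
CPM (vertical axis, from 0 in each panel) of the 10 genes in each library labelled *Gadd45a*-WT (blue) or *Gadd45a*-KO (red), with bars for the mean and SD of 6 libraries. The points of the labels do not overlap for *Ryr2* and *Ryr3* and overlap for the other 8 genes.

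*Ryr2* (ENSMUSG00000021313) encodes the ryanodine receptor type that is most abundant in heart muscle and in much of the brain. It lies on the minus strand of chromosome 13, from 11645370 to 12199212, with 105 exons in its longest transcript. In the libraries labelled *Gadd45a*-WT the lowest value was 469.1 CPM, the median 496.1 and the highest 532.2, from 21318 to 27990 reads. Under the label *Gadd45a*-KO the lowest was 352.6 CPM, the median 383.5 and the highest 443.5, from 16847 to 20476 reads. The labels were thus separated, although replicate 5 labelled *Gadd45a*-KO stood well above the other five of its label, which lay between 352.6 and 386.0 CPM. The means were 499.6 ± 26.9 and 386.6 ± 30.6 CPM (SD, n = 6 each). The log2 fold change was -0.37 (standard error 0.05, 95% interval -0.48 to -0.26, adjusted p = 0.000692 in the quasi-likelihood test of edgeR, adjusted over all tested genes by the Benjamini-Hochberg method). A two-sided exact permutation test of log2 CPM gave p = 0.00216, the smallest that 6 against 6 libraries allow.

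*Ryr3* (ENSMUSG00000057378) encodes the type first described in brain, where it is found in hippocampal neurons among others. It lies on the minus strand of chromosome 2, from 112471512 to 113057253, with 104 exons in its longest transcript. The libraries labelled *Gadd45a*-WT ranged from 173.2 to 226.1 CPM with a median of 193.4 (7870 to 11891 reads). Those labelled *Gadd45a*-KO ranged from 119.1 to 168.7 CPM with a median of 134.4 (5418 to 8198 reads). The labels came close without overlapping: replicate 4, the highest labelled *Gadd45a*-KO, was just under replicate 1, the lowest labelled *Gadd45a*-WT. The means were 195.4 ± 19.1 and 136.6 ± 18.0 CPM (SD, n = 6 each), a log2 fold change of -0.52 (standard error 0.08, 95% interval -0.69 to -0.34, adjusted p = 0.00161, edgeR). The exact permutation test gave p = 0.00216.

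*Ryr3* shares exons with *Aven*, a cell death inhibitor gene on the opposite strand, and 795 of its 15360 windows (5.18%) match a gene on the other strand. The authors counted reads by strand, and *Aven* itself stood at 5.98 ± 0.649 CPM labelled *Gadd45a*-WT and 6.01 ± 0.656 CPM labelled *Gadd45a*-KO (log2 fold change 0.01, standard error 0.09, edgeR adjusted p = 0.986).

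*Ryr1* (ENSMUSG00000030592), the skeletal muscle type that couples to voltage sensors of the plasma membrane, lies on the minus strand of chromosome 7, from 29788359 to 29910170. It ranged from 60.1 to 78.6 CPM (median 69.1) in the libraries labelled *Gadd45a*-WT and from 48.3 to 72.5 CPM (median 59.1) in those labelled *Gadd45a*-KO. The second group fell apart into replicates 2, 3 and 4, below every library labelled *Gadd45a*-WT, and replicates 1, 5 and 6, inside the range of that label. The log2 fold change of -0.21 (standard error 0.11, 95% interval -0.43 to 0.02) did not pass the threshold (edgeR adjusted p = 0.436). Replicate 5 labelled *Gadd45a*-WT was the highest of its label for *Ryr2* and *Ryr3* and the lowest for *Ryr1*.

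As reads per kilobase of annotated exons, the summed level of the 3 ryanodine receptors was 43.0 ± 2.23 CPM per kilobase labelled *Gadd45a*-WT and 32.9 ± 2.76 labelled *Gadd45a*-KO (SD, n = 6 each), and the labels did not overlap (40.7 to 45.9 against 29.5 to 37.1). Most of this sum is *Ryr2* and *Ryr3*, each without overlap by itself, so its separation adds nothing to theirs. In the make-up of this sum the labels overlapped. *Ryr2* held 63.9 ± 0.364% and 64.7 ± 1.94% of it, *Ryr3* 25.6 ± 1.4% and 23.5 ± 2.31%, and *Ryr1* 10.5 ± 1.41% and 11.8 ± 1.57%. The log2 ratio of *Ryr3* to *Ryr2* was -1.36 ± 0.08 labelled *Gadd45a*-WT and -1.51 ± 0.17 labelled *Gadd45a*-KO. The ranges, -1.45 to -1.24 and -1.65 to -1.19, overlapped only through replicate 4 labelled *Gadd45a*-KO.

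*Itpr1* (ENSMUSG00000030102) encodes the main neuronal IP3 receptor and lies on the plus strand of chromosome 6, from 108163112 to 108501103. Its libraries labelled *Gadd45a*-WT ranged from 524.6 to 798.8 CPM with a median of 614.3. Those labelled *Gadd45a*-KO ranged from 396.5 to 663.7 CPM with a median of 508.9. Replicates 1, 2 and 3 labelled *Gadd45a*-KO lay below every library labelled *Gadd45a*-WT and the other three lay within that range. The means of 634.9 ± 97.7 and 513.9 ± 99.8 CPM (SD, n = 6 each) gave a log2 fold change of -0.30 (standard error 0.12, 95% interval -0.57 to -0.04), with an edgeR adjusted p of 0.268 and an exact permutation p of 0.0584. This gene had the widest relative spread among the 6 libraries labelled *Gadd45a*-KO. Its coefficient of variation there was 19.4%, against 18.5% for *Ryr1* and 7.92% for *Ryr2*. The interval for *Itpr1* takes in the -0.37 fitted for *Ryr2*.

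*Itpr2* and *Itpr3*, the IP3 receptors better known from heart muscle, glia and secretory cells, were low. *Itpr2* (ENSMUSG00000030287, chromosome 6, minus strand, from 146056821 to 146450745) had 31.9 ± 2.65 and 29.7 ± 1.70 CPM (log2 fold change -0.11, standard error 0.06, 95% interval -0.22 to 0.01, edgeR adjusted p = 0.446). *Itpr3* (ENSMUSG00000042644, chromosome 17, plus strand, from 27194249 to 27259168) had 5.60 ± 0.707 and 6.38 ± 0.681 CPM, from 239 to 365 reads (log2 fold change 0.19, standard error 0.09, 95% interval -0.02 to 0.39, edgeR adjusted p = 0.420). Values are given first for the label *Gadd45a*-WT, as mean ± SD of 6 libraries. *Itpr1* held 95.3 ± 0.528% and 94.3 ± 0.773% of the summed IP3 receptor level per kilobase. That sum was 63.8 ± 9.51 and 52.2 ± 9.71 CPM per kilobase and overlapped between the labels.

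The SERCA gene *Atp2a2* (ENSMUSG00000029467, chromosome 5, minus strand, from 122903531 to 122952183), whose pump refills the store in most cells, had the highest CPM of the 10 genes. It ranged from 902.3 to 1048 CPM (median 949.0) labelled *Gadd45a*-WT and from 875.9 to 1044 CPM (median 963.7) labelled *Gadd45a*-KO, largely the same range. The log2 fold change was 0.00 (standard error 0.05, edgeR adjusted p = 0.983), and its 95% interval of -0.11 to 0.12 did not reach the values fitted for *Ryr2* or *Ryr3*. *Atp2a3* (ENSMUSG00000020788, chromosome 11, plus strand, from 72774671 to 72806546), a pump of blood and epithelial cells, had 8.12 ± 1.31 and 9.17 ± 1.17 CPM (SD, n = 6 each, log2 fold change 0.18, standard error 0.11, 95% interval -0.06 to 0.42, edgeR adjusted p = 0.551). *Atp2a2* made up 99.1 ± 0.168% and 99.0 ± 0.082% of the 2 genes' summed level per kilobase.

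The sensors showed the tightest intervals. *Stim1* (ENSMUSG00000030987, chromosome 7, plus strand, from 109416338 to 109585362) had 75.5 ± 2.03 CPM labelled *Gadd45a*-WT and 75.0 ± 2.28 CPM labelled *Gadd45a*-KO (SD, n = 6 each, log2 fold change -0.01, standard error 0.03, 95% interval -0.08 to 0.05, edgeR adjusted p = 0.934). *Stim2* (ENSMUSG00000039156, chromosome 5, plus strand, from 54389762 to 54512296), which responds to smaller losses of stored calcium, had 161.3 ± 8.93 and 167.2 ± 10.1 CPM (log2 fold change 0.05, standard error 0.05, 95% interval -0.05 to 0.15, edgeR adjusted p = 0.722). *Stim2* held 60.0 ± 1.10% and 61.1 ± 1.64% of the pair's level per kilobase.

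**Figure D2:**
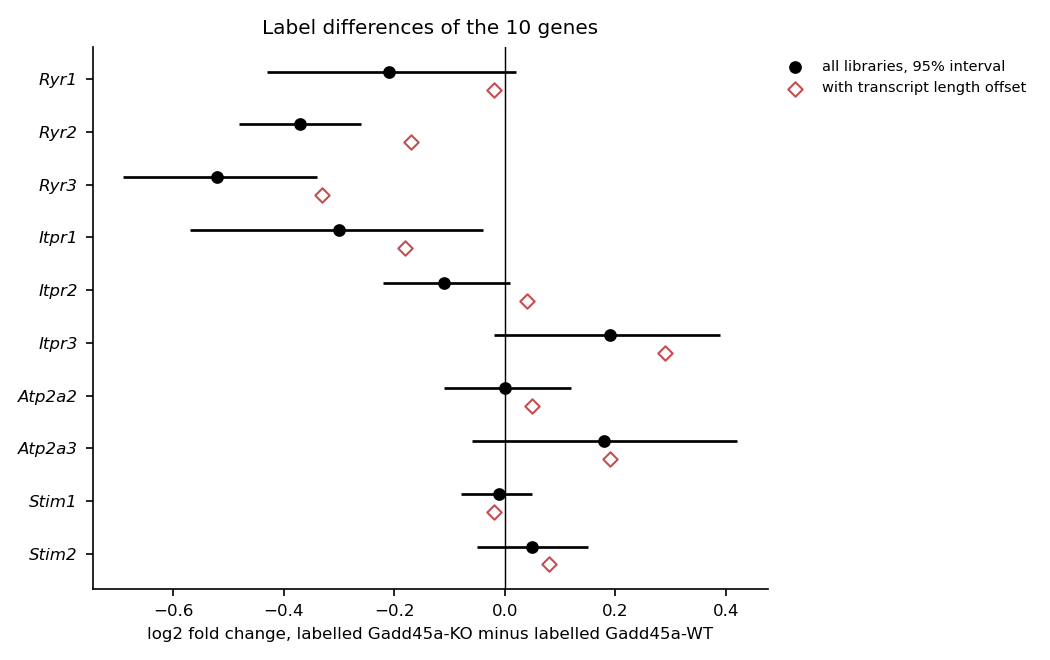
Log2 fold change (horizontal axis, labelled *Gadd45a*-KO minus labelled *Gadd45a*-WT) of each gene from edgeR, with its 95% interval (black), and the fold change after an offset for transcript length (open diamonds, drawn without interval). The intervals of *Ryr2* (-0.48 to -0.26), *Ryr3* and *Itpr1* lie below zero, and the diamonds of the ryanodine receptors lie closer to zero than the black points.

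Compared per kilobase of annotated exons, the genes spanned more than 2 orders of magnitude. In poly(A) libraries, reads can thin out with distance from the poly(A) tail, as the study describes. Ranks between genes of unlike length are therefore approximate. In the libraries labelled *Gadd45a*-WT the order was *Atp2a2* (169.5 ± 10.9 CPM per kilobase), *Itpr1* (60.8 ± 9.36), *Stim2* (31.6 ± 1.75), *Ryr2* (27.5 ± 1.48), *Stim1* (21.0 ± 0.563), *Ryr3* (11.0 ± 1.08), *Ryr1* (4.50 ± 0.460), *Itpr2* (2.37 ± 0.196), *Atp2a3* (1.54 ± 0.248) and *Itpr3* (0.623 ± 0.0786). No neighbours in this order overlapped, although *Stim2* and *Ryr2* nearly met, with a lowest *Stim2* value of 29.4 and a highest *Ryr2* value of 29.3. The order was the same in the libraries labelled *Gadd45a*-KO, where *Ryr2* stood at 21.3 ± 1.68, close to *Stim1* at 20.8 ± 0.634, and their ranges overlapped. *Ryr3* there stood at 7.71 ± 1.01 CPM per kilobase. In hippocampus, then, each family had 1 leading member, *Ryr2*, *Itpr1*, *Atp2a2* or *Stim2*.

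**Figure D3:**
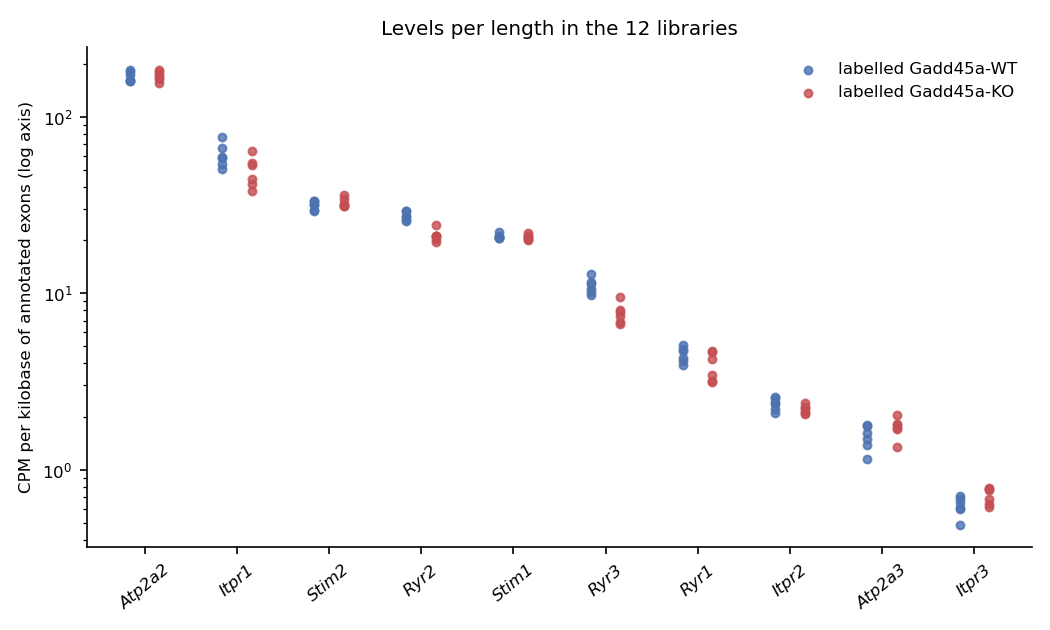
Level per length of the 10 genes (CPM per kilobase of annotated exons, logarithmic vertical axis), each point a library labelled *Gadd45a*-WT (blue) or *Gadd45a*-KO (red), in the order of the mean labelled *Gadd45a*-WT. Levels fall from 169.5 for *Atp2a2* to 0.623 for *Itpr3*.

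The ryanodine receptors have some of the longest mRNAs of the genome, and the label difference varied with length across all genes. The longest annotated transcripts were 15362 bases for *Ryr1*, 16813 for *Ryr2*, 15410 for *Ryr3*, 11699 for *Itpr2*, 9848 for *Itpr1* and 8990 for *Itpr3*, against 3597 to 5674 for the pump and sensor genes. Of 284 tested genes with a transcript of at least 10000 bases, 55 (19.4%) were lower under the label *Gadd45a*-KO at 1% FDR, with a median log2 fold change of -0.16. The share was 8.57% of 2625 genes between 5000 and 10000 bases, 1.32% of 8906 between 2000 and 5000 bases, and 0.659% of 4550 genes below that. *Ryr2* and *Ryr3* lay below the median of their length class, *Ryr1* near it at -0.21 and *Itpr2* above it at -0.11.

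With an offset that removes, in each library, the smooth trend of counts on transcript length, neither gene passed 1% FDR. The log2 fold change became -0.17 for *Ryr2* (edgeR adjusted p = 0.0484) and -0.33 for *Ryr3* (adjusted p = 0.0353), while *Ryr1* stood at -0.02 and *Itpr1* at -0.18. Such an offset also takes out any change that long mRNAs have in common, so what the lengths share and what is particular to these genes cannot be told apart by it. The share of reads that fell on no annotated exon of the counted strand also differed. Such reads take in intronic and antisense reads and those beyond annotated gene ends. They made up 14.5 to 15.9% of these and the gene reads labelled *Gadd45a*-WT and 13.1 to 14.4% labelled *Gadd45a*-KO. The part of this share in the result was not tested.

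Among the libraries of 1 label, several release channels had their extremes in the same mice. Replicate 5 labelled *Gadd45a*-WT was highest and replicate 1 lowest for *Ryr2*, *Ryr3* and *Itpr1*. Of those labelled *Gadd45a*-KO, replicate 4 was highest and replicate 2 lowest for *Ryr3*, *Itpr1* and *Itpr2*, whereas *Ryr2* was highest in replicate 5 and lowest in replicate 3. Shared extremes were not particular to the release channels. Under the label *Gadd45a*-KO, *Stim1* was also highest in replicate 4 and lowest in replicate 2. Replicate 1 labelled *Gadd45a*-WT was also lowest for *Itpr2*, *Atp2a2* and *Stim1*. The root mean square difference of log2 CPM, each profile centred on its mean over the 12 libraries, was 0.142 between *Ryr2* and *Ryr3* and 0.139 between *Ryr3* and *Itpr1*. By the same measure the tested genes outside the 10 that were most like *Ryr2* included *Setd2*, a histone methyltransferase gene (0.0469), and *Bdp1*, a gene for a subunit of the RNA polymerase III initiation factor (0.0480). Their log2 fold changes were both -0.32. A profile over all 12 libraries holds the label difference, so that a similar fold change follows from the choice of these genes. Those most like *Ryr3* included *Kctd16*, an auxiliary subunit gene of GABA-B receptors (0.0823, log2 fold change -0.53), and *Uggt2*, a glucosyltransferase gene of the reticulum (0.0953, log2 fold change -0.37).

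A list of 79 further genes of the same calcium pathway was counted beside the 10. Of these, 76 were matched to the annotation and 75 tested, *Trdn* (triadin) being too low at 0.157 ± 0.0840 and 0.175 ± 0.048 CPM. By edgeR at 1% FDR, 0 of 75 were lower and 0 higher, against 2.62% and 0.0244% of all tested genes. An unadjusted p under 0.05 was found for 10 (13.3%), 7 lower and 3 higher, against 13.7% of all genes. DESeq2 called 1 of the 75. Their median log2 fold change was 0.02. In none of the 75 were all libraries labelled *Gadd45a*-KO below all those labelled *Gadd45a*-WT, against 3.12% of all tested genes. The gene that DESeq2 called, *Plcb1*, a phospholipase that makes IP3, had 278.6 ± 19.9 CPM labelled *Gadd45a*-WT and 245.0 ± 10.2 CPM labelled *Gadd45a*-KO (log2 fold change -0.19, standard error 0.05, adjusted p = 0.0353 in edgeR and 0.00773 in DESeq2). It was chosen after its values were seen.

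By role, the most abundant gene of each group was named. Among 13 genes of the signal into IP3 this was *Gnaq*, the Gq alpha subunit gene, at 361.7 ± 21.3 and 354.8 ± 16.2 CPM (log2 fold change -0.03). Among 6 partners of STIM at the plasma membrane it was *Tmem66*, also called *Saraf*, a brake on store-operated entry, at 204.1 ± 6.86 and 206.4 ± 5.61 CPM (log2 fold change 0.02). Among 23 tested partners of the release channels it was *Fkbp1a*, whose protein binds and steadies ryanodine receptors, at 571.5 ± 41.2 and 552.6 ± 37.5 CPM (log2 fold change -0.05).

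The medians of these roles lay near zero, at 0.02, -0.03 and -0.01 on the log2 scale. Among 7 other pumps and pump partners *Atp2c1*, a Golgi calcium pump gene, led with 251.6 ± 12.7 and 235.8 ± 5.63 CPM (log2 fold change -0.09). Among 16 genes of lumenal calcium binding *Canx*, the chaperone calnexin, led with 327.5 ± 11.0 and 339.3 ± 13.0 CPM (log2 fold change 0.05). Among 10 genes of uptake into mitochondria beside the reticulum *Vdac1*, an outer membrane channel gene, led with 396.0 ± 18.0 and 410.4 ± 13.3 CPM (log2 fold change 0.05). None of these 6 genes passed 1% FDR, with edgeR adjusted p values from 0.240 for *Atp2c1* to 0.901 for *Tmem66*.

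**Figure D4:**
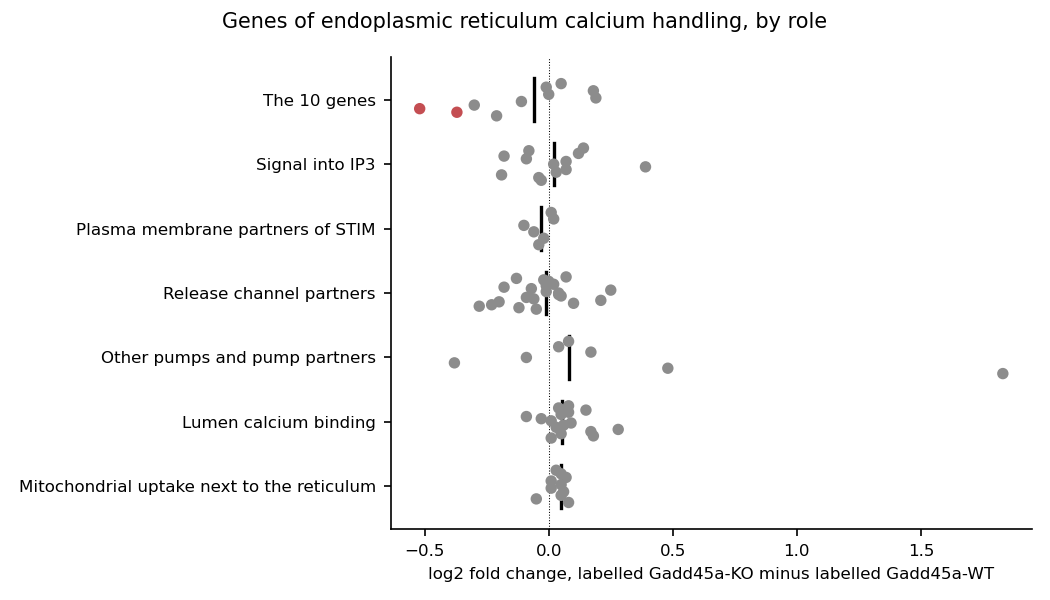
Log2 fold change (horizontal axis, labelled *Gadd45a*-KO minus labelled *Gadd45a*-WT) of the 10 genes and of the 75 tested pathway genes grouped by role, with black bars for group medians and red points for genes past 1% FDR in edgeR. Red points occur only for *Ryr2* and *Ryr3*, and the far point at 1.83 is *Atp2a1*.

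The most distant gene of the list, chosen after its values were seen, was *Atp2a1*, the SERCA pump gene of fast skeletal muscle, with 0.209 to 0.396 CPM (median 0.307) labelled *Gadd45a*-WT and 0.206 to 3.28 CPM (median 0.359) labelled *Gadd45a*-KO. Only replicates 2 and 3 of the latter label stood above the range of the former, and the log2 fold change of 1.83 (standard error 0.65) did not pass the threshold (edgeR adjusted p = 0.181).

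The same 2 libraries stood apart in markers of thalamus, a region next to the hippocampus. The summed CPM of 5 thalamic markers was 243.7 in replicate 2 and 377.0 in replicate 3 labelled *Gadd45a*-KO, 81.2 to 114.7 in the other 4 of that label and 78.5 to 116.7 in the libraries labelled *Gadd45a*-WT. The sum of 4 oligodendrocyte markers reached 6653 in replicate 3, against 2721 to 3424.5 in the other five of its label and 2111 to 3347 labelled *Gadd45a*-WT. By unadjusted p under 0.05, 3 of the 5 thalamic, 4 of the 4 oligodendrocyte and 4 of the 4 mural and smooth muscle markers were higher under the label *Gadd45a*-KO, as were 2 of the 5 astrocyte markers, with 1 of the 5 lower. Over all tested genes, 13.7% had such a p in either direction. The mural and smooth muscle sum was 151.7 to 172.7 CPM labelled *Gadd45a*-KO and 124.2 to 155.0 CPM labelled *Gadd45a*-WT. These ranges overlapped only through replicate 6 labelled *Gadd45a*-KO. In CA2 markers 1 of 2 was higher and in striatal markers 1 of 3 was lower by the same measure. The sum of 3 CA1 markers was lowest in replicates 2, 3 and 5 labelled *Gadd45a*-KO, at 187.6 to 219.4 CPM, against 292.1 to 363.9 CPM labelled *Gadd45a*-WT. It was highest of all libraries in replicate 4 labelled *Gadd45a*-KO, at 416.1 CPM. The sum of 3 dentate granule cell markers was 177.5 CPM in replicate 4 and 256.9 CPM in replicate 3 labelled *Gadd45a*-KO. The others of that label lay within the 278.9 to 410.0 CPM labelled *Gadd45a*-WT. No marker of any of the 20 lists of cell types and regions passed 1% FDR in edgeR, and the summed levels overlapped between the labels in all 20.

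Without replicates 2 and 3 labelled *Gadd45a*-KO, the 2 libraries high in thalamic markers, *Ryr2* stood at -0.32 (edgeR adjusted p = 0.00579) and *Ryr3* at -0.43 (adjusted p = 0.0102). Thus 1 rather than 2 of the 10 genes passed 1% FDR. Over all genes 199 rather than 430 were then lower. *Ryr1* and *Itpr1* moved to -0.08 and -0.17. These 2 libraries held the 2 lowest values of *Ryr1*, *Ryr2*, *Ryr3* and *Itpr1* alike. The part of the marker differences in these results, those outside the 2 libraries included, was not tested further.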

How the data were processed

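The authors sequenced poly(A) RNA with a stranded kit and, per the labels and methods, aligned reads with TopHat 1.4.1 to NCBIM37/mm9 and deposited raw read counts per Ensembl gene from HTSeq 0.5.4p3, with strand, without normalization and without pooling. The processing notes also name SAMtools and DESeq 1.16.0. The HTSeq lines for unassigned, ambiguous or multiply aligned reads stayed out of library sizes. Groups and replicate numbers came from the labels. Symbols and exons came from GENCODE M1 of the same build (37205 of 37991 IDs matched), and the sequences from its transcripts.

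Counts were filtered (filterByExpr), scaled (TMM) and compared with the quasi-likelihood test of edgeR 4.0.16 in R 4.3.3 at 1% FDR, the study's threshold, without covariates. Standard errors are the log2 fold change over the root of the F statistic. Log2 CPM used a prior count of 2. Exact permutation tests ran over 924 regroupings (scipy 1.17.1). The level per length divides CPM by the union of annotated exons. Alternatives were 5% FDR, a block for the replicate number, DESeq2 1.42.0, RLE size factors, no expression filter, a minimum of 10 counts per library, an offset for transcript length (spline, 5 degrees of freedom, lengths for 99.8% of tested genes) with and without the block, and leaving out each library. Leaving out the 2 libraries high in thalamic markers was added after seeing the data. The fits were tested on simulated data, drawn with the dispersions of edgeR, in which 200 genes were raised or lowered by 1 on the log2 scale. At 1% FDR edgeR recovered 179 of them with 2 other calls, and DESeq2 recovered 183 with 21 other calls.

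The 10 genes, the pathway list and the marker lists were chosen with earlier results of these data known. Named are the 10 genes, *Gadd45a*, the most abundant pathway gene of each role and the 3 genes nearest in profile to each gene past 1% FDR, of which some are not reported here, others being marked. *Tespa1*, *Mrln* and *Smdt1* matched no ID. One read was 0.018 CPM in the deepest library. Same-label libraries differed by more than counting error (chi-square per degree of freedom 8.60 to 37.8 over 30 pairs). Each library is 1 mouse by the labels.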

Additional observations from a re-analysis of the deposited data

Results flagged for a closer look

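In each label the 6 values of each of the 10 genes were searched for a single library far from the others, by the gap to its nearest neighbour over the whole range, with Dixon's 95% critical value as the limit. Of 20 groups examined 2 passed, and chance alone gives about 1. *Ryr2* stood at 443.5 CPM in replicate 5 labelled *Gadd45a*-KO, against 352.6 to 386.0 CPM in the other five of that label (gap over range 0.633). This library was the nearest of its label to the libraries labelled *Gadd45a*-WT. *Stim1* stood at 79.5 CPM in replicate 3 labelled *Gadd45a*-WT, against 74.1 to 75.9 CPM in the other five (gap over range 0.667).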

How the results depend on the processing

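*Ryr2* and *Ryr3* stayed lower in the libraries labelled *Gadd45a*-KO under all 21 alternatives, from -0.40 to -0.17 and from -0.58 to -0.33 on the log2 scale, and the number of the 10 genes called lower was 2 in all but 3 of them. It was 0 with the transcript length offset and 0 with that offset and the replicate block, and 1 without the 2 libraries high in thalamic markers. With the block added to the offset, the adjusted p was 0.0341 for *Ryr2* and 0.0101 for *Ryr3* (edgeR). Leaving out any single library gave 2 of 10 lower, with adjusted p of at most 0.00365 and 0.00722 (edgeR). No label says whether the replicate numbers pair the mice, and the correlations do not settle it. The deviations of same-numbered libraries correlated at 0.14 on average, above 0.1 in 5 of 6 pairs and at -0.0761 in the lowest. Of the libraries labelled *Gadd45a*-KO 3 of 6, and of those labelled *Gadd45a*-WT 1 of 6, correlated best with their own number. The block on these numbers gave 509 lower and 5 higher genes, adjusted p was 0.00076 for *Ryr2*, 0.00163 for *Ryr3* and 0.0555 for *Itpr1*, and no call among the 10 genes changed.

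Near zero, signs turned: *Itpr2* was at 0.04 with the length offset with or without the block, and *Atp2a2* and *Stim1* ranged from -0.01 to 0.04 and from -0.02 to 0.01 over the left-out libraries and were at -0.01 and 0.00 without the 2 libraries. Of the pathway list, 1 gene (*Plcb1*) was lower in DESeq2 and 1 at 5% FDR. Over all genes, the 430 lower became 667 in DESeq2, 726 at 5% FDR, 247 and 272 with the length offset without and with the block, 199 without the 2 libraries, and 239 to 467 when 1 library was left out. Those that moved it most were replicates 3 (268), 5 (239) and 6 (261) labelled *Gadd45a*-WT and replicates 1 (248), 2 (276) and 6 (248) labelled *Gadd45a*-KO. The 4 higher became 18 in DESeq2, 20 at 5% FDR and 3 to 4 with 1 library left out. Leaving libraries out fits fewer samples by construction, and for the other alternatives the cause was not tested. Levels per kilobase by the longest transcript alone were higher by more than the spread between libraries for *Ryr2*, *Ryr3* and *Itpr2* (29.7, 12.7 and 2.73 labelled *Gadd45a*-WT) and for *Atp2a3* labelled *Gadd45a*-KO (1.99), and by less for *Itpr1* and *Stim2*, with the same order. The lowest read numbers were those of *Itpr3* and *Atp2a3*, at 239 to 556 reads a library.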
